A study of Homo sapiens with 24 samples.

Results

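The MYC, MAX and MXD network was followed here through 10 genes, found by gene symbol among the 60675 genes of the count files: MYC, MYCN and MYCL, MAX and MLX, and MXD1, MXI1, MXD3, MXD4 and MNT. All belong to the basic helix-loop-helix leucine zipper transcription factors, which bind DNA as dimers at E-box sequences. MYC and its paralogs MYCN and MYCL dimerise with MAX and raise the transcription of genes for ribosome production, nucleotide and amino acid metabolism and cell cycle entry. The MXD proteins, MXI1 and MNT compete for MAX and recruit the SIN3 and histone deacetylase corepressors to the same sites, while MLX is a parallel partner that also pairs with the glucose-sensing factors MLXIP (MondoA) and MLXIPL (ChREBP). In prostate cancer MYC is a frequently amplified oncogene, and MYCN is best known from neuroendocrine disease.

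The libraries came from LNCaP:C42 and 22Rv1, both established human prostate cancer cell lines that carry the androgen receptor. Cells of both lines were transfected with a pool of siRNAs against METTL3 (siMETTL3), the catalytic subunit of the writer of N6-methyladenosine in RNA, or with a non-targeting pool (siSCR). After 48 h the cells were transfected a second time and were kept for 72 h in medium with charcoal-stripped serum, either with 1 nM of R1881, a synthetic androgen, or with its ethanol vehicle. The 24 RNA-seq libraries form 8 groups of 3, so that siRNA transfection and steroid-depleted serum were shared by every group. The sample labels do not say whether replicates were separate cultures, so p-values measure the spread between these libraries, which may be technical. In bulk RNA of this kind, fewer cells of a type and less RNA per cell cannot be told apart.

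Libraries held 15716224 to 21306019 counted fragments, and 3 counts, the smallest signal read here, equalled 0.126 to 0.194 CPM (counts scaled for library depth by the TMM method); this floor covers counting error only. METTL3 itself fell by 0.61 (vehicle) and 0.57 (R1881) on the log2 scale in LNCaP:C42 and by 0.89 and 1.18 in 22Rv1 (edgeR adjusted p = 0.0127, 0.0256, 1.48e-06 and 1.29e-08), so the target was reduced rather than removed. KLK3, the gene of prostate-specific antigen, rose by 4.08 with R1881 in LNCaP:C42 with siSCR. FKBP5, another androgen receptor target, rose by 3.33 in 22Rv1 with siSCR. KLK3 there stood at 6.36 to 6.91 CPM in vehicle and 6.13 to 7.40 CPM with R1881. TMPRSS2, a further androgen target, rose by 4.26 in LNCaP:C42 with siSCR. In 22Rv1 its log2 fold change was −0.40 with siSCR (edgeR adjusted p = 0.1) and −0.17 with siMETTL3 (adjusted p = 0.478). The epithelial marker EPCAM stood at 87.0 to 154 CPM in all libraries, whereas the endothelial marker PECAM1 had at most 2 counts. The leukocyte marker PTPRC had 22 to 28 counts in the LNCaP:C42 siSCR vehicle libraries and 0 with R1881 (edgeR adjusted p = 4.78e-05), 2 to 5 with siMETTL3 and vehicle (adjusted p = 0.0181 for the knockdown) and 0 with siMETTL3 and R1881, and at most 5 in 22Rv1; its part in the results was not tested. The 7 markers of other cell types, nearly all of their sum from the fibroblast collagen COL1A1, reached 42.7 to 63.8 CPM in LNCaP:C42 siSCR vehicle and 38.7 to 48.3 CPM with R1881, and 61.0 to 72.3 and 65.0 to 66.6 CPM with siMETTL3. In 22Rv1 the sum was 23.9 to 31.3 and 16.1 to 18.6 CPM with siSCR. With siMETTL3 it was 29.3 to 31.3 and 16.5 to 16.7 CPM. COL1A1 fell in 22Rv1 with R1881 by 0.73 and 0.91, and its part in the results was not tested. The other fibroblast markers, COL1A2 and DCN, had at most 1 and 5 counts in any library. Mitochondrial genes took 3.93% to 9.73% of the counts. In LNCaP:C42 this share was 7.08%, 9.73% and 9.69% in siSCR R1881 libraries 1, 2 and 3. It was 9.60%, 6.89% and 7.03% in those of siMETTL3 vehicle. In 22Rv1 siMETTL3 vehicle the share was 7.45%, 5.27% and 5.04%, and its part in the results was not tested. Of the libraries, LNCaP:C42 siMETTL3 vehicle 1 and LNCaP:C42 siSCR R1881 1 correlated least with the others of their groups (mean r = 0.981 and 0.985, against 0.986 to 0.991 elsewhere), and the LNCaP:C42 results below are also given without both.

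Promoter sequences are shown for the members whose promoter held the E-box that MYC and MAX bind, since this is the sequence the network itself is known to bind. The letters CACGTG, which read the same on both strands, were searched in the 300 bases around each gene start that RefSeq gives for GRCh38.p14. They were present in 3 of the 9 members with a promoter in that table, MXD4, MNT and MLX, against 8.77% of 27305 genes with a promoter and 29 of 61 genes (47.5%) of 3 lists of MYC target genes described below. Each sequence is printed 5′ to 3′ on the strand of its gene with the E-box in capitals.
MXD4, chr4:2262292-2262359, minus strand: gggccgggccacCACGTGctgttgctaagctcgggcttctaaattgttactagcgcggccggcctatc
MNT, chr17:2401198-2401303, minus strand: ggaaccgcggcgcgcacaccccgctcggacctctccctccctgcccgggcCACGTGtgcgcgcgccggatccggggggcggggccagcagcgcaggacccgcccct
MLX, chr17:42567000-42567105, plus strand: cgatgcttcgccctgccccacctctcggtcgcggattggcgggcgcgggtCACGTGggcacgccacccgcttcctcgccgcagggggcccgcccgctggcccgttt
The E-box began 238 bases before the start of MXD4, 193 before that of MNT and 50 before that of MLX. The promoters of MYCN, MYCL, MAX, MXD1, MXI1 and MXD3 in the table did not hold these letters. A match is a description of sequence only, and binding was not measured in these data.

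Reads were counted without regard to strand and fragments that fell on several genes were left out, so exons shared with a neighbouring gene lower or blur a count. MXD3 (5:177301461-177312757, minus strand) shared 40.4% of its exonic bases with RAB24 and PRELID1, MLX (17:42567068-42573239, plus strand) shared 18.1% with PSMC3IP, and MNT (17:2384060-2401118, minus strand) shared 12.2% with an antisense gene. The overlap was 4.46% for MYCL (1:39895426-39902256, minus strand) with its antisense gene MYCL-AS1 and 3.77% for MYCN (2:15940564-15947007, plus strand) with MYCNOS. It was 4.15% or less for MAX, MXD1 and MXD4 and 4.45% for MXI1. MYC on chromosome 8 shared no exonic base with another gene.

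Levels were compared between genes per length, as TPM (counts per kilobase of gene length, scaled to a fixed total) computed from the counts and the gene lengths in the files. The full gene length was used, including bases shared with neighbours, where fragments were left out. The TPM of MXD3 (40.4% shared), MLX (18.1%) and MNT (12.2%), and their place in the order, may therefore be too low. MYC had the highest level of the network in all 8 groups, with group means of 162 to 233 TPM in LNCaP:C42 and 377 to 390 TPM in 22Rv1, and in no group did its libraries overlap those of the next gene. MXI1, an antagonist that takes MAX away from MYC, came second with 79.8 to 115 TPM, and MLX followed with 49.4 to 88.3 TPM. In LNCaP:C42 the libraries of MXI1 and MLX overlapped in siSCR vehicle and in siMETTL3 R1881, so the pair did not differ beyond its spread there. MXD4 came next in LNCaP:C42 (46.0 to 61.1 TPM) ahead of MAX (32 to 41.8 TPM), and MAX preceded MXD4 in 22Rv1 (30.9 to 33.9 TPM against 22.1 to 25.7 TPM). MNT (14.4 to 26.4 TPM), MXD3 (9.41 to 25.3 TPM) and MXD1 (5.80 to 17.3 TPM) filled the lower middle of the order. Among neighbours in LNCaP:C42, MXD4 and MAX overlapped in siMETTL3 vehicle, MNT and MXD3 in vehicle with either siRNA pool, MYCL and MXD1 in siSCR vehicle, and MYCL, MXD3 and MXD1 in siSCR R1881. In 22Rv1 MXD4 and MXD3 overlapped in siSCR vehicle and in both siMETTL3 groups, MAX and MXD3 in siMETTL3 vehicle, MNT and MXD1 in both siSCR groups, and MYCL and MYCN in siSCR vehicle.

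MYCL, a MYC paralog first described in lung cancer, reached 7.76 to 13.7 TPM in LNCaP:C42 and 3.77 to 7.31 TPM in 22Rv1. MYCN had 0 counts in all 12 LNCaP:C42 libraries, which allows up to 3 counts in each, and 10 to 74 counts in the 22Rv1 libraries, or 1.12 to 4.22 TPM. MYC therefore made up 94.2% to 98.3% of the summed TPM of the 3 activators, as a group mean. The plot of TPM by gene and cell line shows this order.

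**Figure D1:**
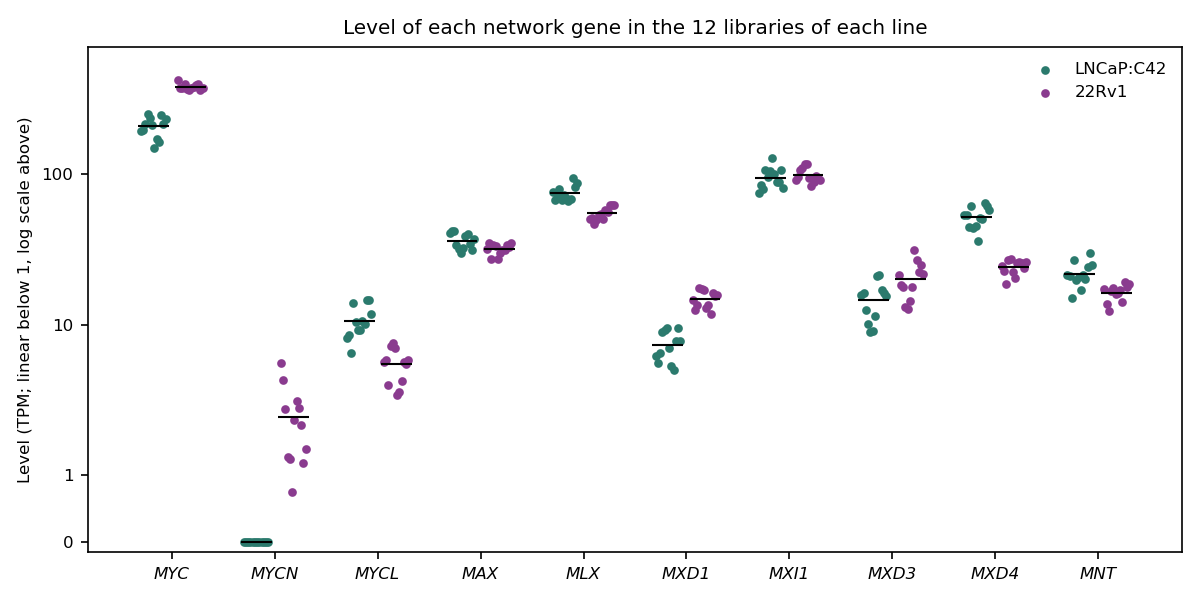
Level of each network member in TPM (vertical axis, linear below 1 and log above) in the 12 libraries of each cell line. Points are single libraries, colours the lines and black bars the means of 12 libraries. MYC sits above the other members in both lines, and MYCN lies at 0 in LNCaP:C42 and at 1.12 to 4.22 TPM, as group means, in 22Rv1.

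In LNCaP:C42 with siSCR, R1881 changed members of each role in the network. Of the 9 members tested, 6 passed an adjusted p of 0.05 (4 higher, 2 lower), against 24.8% of the 16435 genes tested (12.7% higher, 12.1% lower), and 2 of them, MYCL and MXD1, also reached 1.5-fold and were differentially expressed genes (DEGs), against 15.1% of genes. The median log2 fold change of the members was 0.29, beside −0.03 for all genes. MYC, MYCL, MXD1 and MXI1 rose, and MAX and MXD3 fell. With scaling by library size alone 4 members passed, and the median of all genes lay at −0.15.

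Among the activators, MYC stood at 186, 192 and 205 CPM in the vehicle libraries and at 258, 239 and 222 CPM with R1881. The lowest R1881 library lay above the highest vehicle library, and the log2 fold change was 0.29 (SE 0.09, edgeR adjusted p = 0.0281). MYCL stood at 13.2, 14.1 and 10.4 CPM in vehicle and at 24.3, 18 and 16.2 CPM with R1881, again without overlap, and rose by 0.62 (SE 0.16, adjusted p = 0.0105). R1881 library 1, one of those that stand apart, was the highest for both genes.

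Among the partners, MAX stood at 57.8, 60.3 and 59.2 CPM in vehicle and at 51.1, 48.1 and 46.3 CPM with R1881. All 3 R1881 libraries were lower, and MAX fell by 0.30 (SE 0.10, adjusted p = 0.0431). MLX had overlapping libraries (92.8 to 103 CPM against 97.1 to 116 CPM) and a log2 fold change of 0.11 (adjusted p = 0.434).

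The antagonists did not move together. MXD1, first described as a partner of MAX that is induced on differentiation, went from 12.6, 11.4 and 13.1 CPM to 19.5, 19.9 and 21 CPM, a rise of 0.69 (SE 0.14, adjusted p = 0.00216). MXI1 went from 111, 126 and 116 CPM to 167, 149 and 166 CPM, a rise of 0.44 (SE 0.13, adjusted p = 0.024). MXD3, the MXD protein that is best known from proliferating cells, went from 26, 27 and 20.4 CPM to 17.9, 15.7 and 16.2 CPM, a fall of 0.57 on the log2 scale (SE 0.19, adjusted p = 0.037). The libraries with and without R1881 did not overlap for any of these 3 genes. Throughout, a lack of overlap comes from the same libraries as the tests and is no separate support. Its share among all genes was not counted. MXD4 (log2 fold change 0.08, adjusted p = 0.74) and MNT (0.31, adjusted p = 0.158), which is expressed in most tissues and carries the general antagonist role in resting cells, had overlapping libraries.

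Several of these passes were lost when 1 library was left out, with log2 fold changes close to those of all libraries. The pass of MAX was lost in 6 of 6 fits (−0.26 to −0.32, adjusted p 0.0516 to 0.145) and that of MYC without vehicle 1 or 2 or R1881 1 or 2 (0.25 to 0.29, adjusted p up to 0.119). MXD3 lost its pass without vehicle 1 or 2 or R1881 2 or 3 (−0.49 to −0.55, up to 0.131) and MXI1 without vehicle 1 or 3 or R1881 3 (0.40 to 0.44, up to 0.0985). MYCL was no longer a DEG without vehicle 3 (0.51, adjusted p = 0.0507) or R1881 1 (0.45, adjusted p = 0.0452), and MXD1 stayed one in every such fit. MXD3 became a DEG without vehicle 3 (−0.68, adjusted p = 0.0271) or R1881 1 (−0.61, adjusted p = 0.0485). Without both libraries that stand apart, the same 6 members passed, against 37.8% of genes, but MYCL was then no DEG (0.45) and MXD3 was one (−0.61, adjusted p = 0.000468). With library size alone MXD3 was the only DEG (−0.69), with MYCL at 0.50 and MXD1 at 0.58, and neither MYC (0.18, adjusted p = 0.163) nor MXI1 (adjusted p = 0.0708) passed. With no filter on low counts neither MYC (0.30) nor MAX (−0.29) passed.

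With METTL3 reduced, R1881 also raised part of the network in LNCaP:C42. Again 6 of 9 members passed, all of them higher, against 16.6% of genes (8.51% higher, 8.09% lower). MYC and MXD1 were DEGs, against 10.6% of genes, and the median log2 fold change was 0.47, beside −0.00 for all genes. MYC went from 146, 168 and 160.1 CPM to 256, 218 and 232 CPM and rose by 0.59 (SE 0.09, edgeR adjusted p = 0.0003). Its vehicle libraries were lower than those with siSCR, while its R1881 libraries covered the same range. MYCL went from 15.2, 17.3 and 16.6 CPM to 25.5, 24.9 and 19.9 CPM and rose by 0.53 (SE 0.16, adjusted p = 0.0324).

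MLX, which did not pass with siSCR in this line, went from 97.4, 91.2 and 93.9 CPM to 138, 118 and 123 CPM and rose by 0.44 (SE 0.09, adjusted p = 0.00347). MAX overlapped between treatments (47.2 to 57.6 CPM against 46.5 to 54.5 CPM, log2 fold change −0.06, adjusted p = 0.755). MXD1 went from 14.7, 10.9 and 10.3 CPM to 16.9, 20.2 and 16.5 CPM and rose by 0.59 (SE 0.14, adjusted p = 0.00945). All R1881 libraries of MXD1 and MLX lay above all vehicle libraries.

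The antagonists MXD4 and MNT rose here. MXD4 went from 84.0, 117 and 115 CPM to 156, 145 and 135 CPM (0.47, SE 0.14, adjusted p = 0.0333). MNT went from 49.0, 60.1 and 56.6 CPM to 72.3, 88.1 and 71.8 CPM (0.50, SE 0.15, adjusted p = 0.0332). MXI1 (−0.13, adjusted p = 0.561) and MXD3 (−0.08, adjusted p = 0.822), which had passed with siSCR, had overlapping libraries: in vehicle library 1, which stands apart, MXI1 was highest of its group at 193 CPM and MXD3 lowest at 19.2 CPM.

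MYC fell under 1.5-fold without vehicle 1 (0.53) or R1881 1 (0.52) but passed in every fit that left out 1 library, and so did MLX. MXD1 fell under 1.5-fold without vehicle 2 (0.53) or vehicle 3 (0.49), and without R1881 2 it no longer passed (0.48, adjusted p = 0.0655). The pass was lost in 5 of 6 such fits for MYCL (0.46 to 0.57), in 4 for MNT (0.38 to 0.54, adjusted p up to 0.161) and for MXD4 without vehicle 1 or R1881 1 or 2 (0.33 to 0.46, up to 0.129). When both libraries that stand apart were left out 7 members passed, against 24.3% of genes, among them MXD3, which then was lower with R1881 (−0.32, adjusted p = 0.04). With scaling by library size alone 3 members passed. The comparisons of R1881 with siMETTL3 and with siSCR share no library, but each shares libraries with the knockdown comparisons described further on, where the difference between the 2 responses is given as an interaction.

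**Figure D2:**
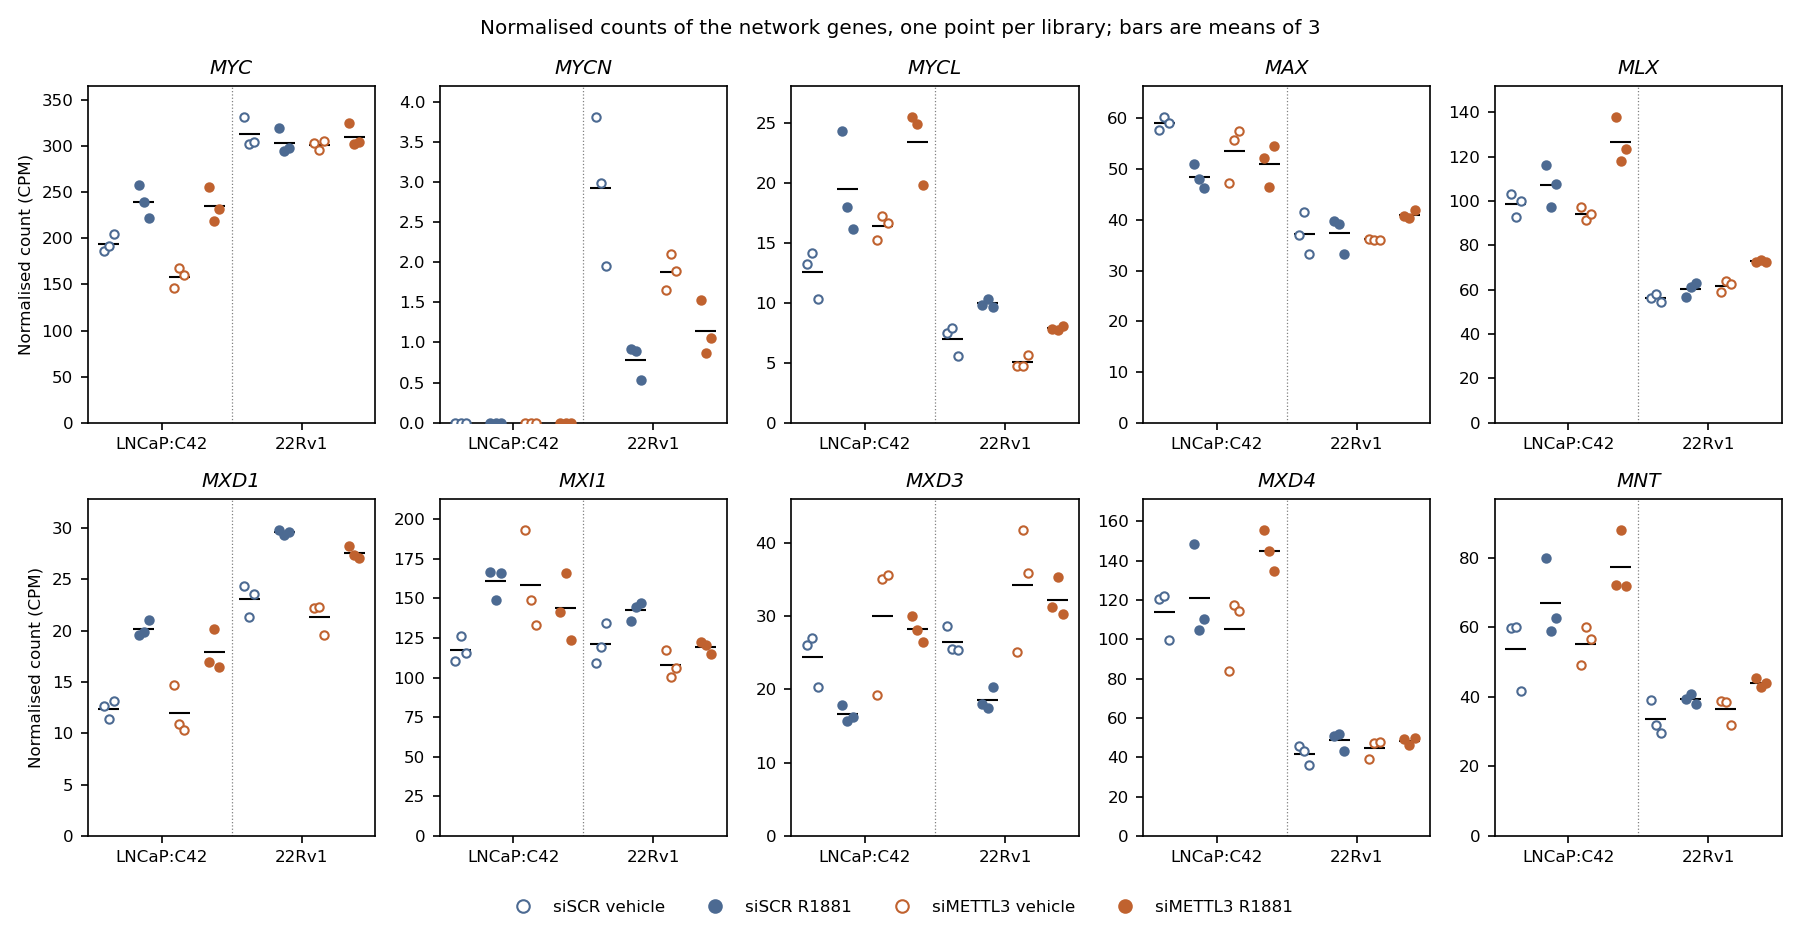
CPM of the 10 members in every library (1 panel per gene, linear axis from 0). Points are single libraries, open for vehicle and filled for R1881, blue for siSCR and orange for siMETTL3, and black bars are means of 3. In LNCaP:C42 the MYC libraries with R1881 sit at 218 to 258 CPM, above those with vehicle at 146 to 205 CPM, whereas in 22Rv1 with siSCR both treatments lie within 294 to 332 CPM.

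In 22Rv1 with siSCR R1881 changed MYCN, MYCL and 3 antagonists, while MYC did not pass. Of 10 members, 5 passed (3 higher, 2 lower), against 33% of the 17865 genes tested (16.6% higher, 16.5% lower), 1 was a DEG, against 13.8%, and the median log2 fold change was 0.15. MYC, the main activator by level, stood at 332, 302 and 305 CPM in vehicle and at 319, 294 and 298 CPM with R1881, so the groups overlapped, and its log2 fold change was −0.06 with a 95% interval of −0.19 to 0.07 (edgeR adjusted p = 0.56). MYCN, the DEG, stood at 3.81, 2.99 and 1.96 CPM in vehicle (74, 56 and 36 counts) and at 0.915, 0.890 and 0.532 CPM with R1881 (17, 16 and 10 counts). Every R1881 library was lower, and MYCN fell by 1.92 on the log2 scale (SE 0.31, adjusted p = 5.01e-05), from a level that was low for the network to begin with.

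MYCL moved the other way, from 7.47, 7.91 and 5.55 CPM to 9.85, 10.3 and 9.69 CPM (0.50, SE 0.14, adjusted p = 0.00827). MXD1 went from 24.3, 21.3 and 23.5 CPM to 29.8, 29.4 and 29.6 CPM (0.35, SE 0.09, adjusted p = 0.00429). In both genes every R1881 library lay above every vehicle library. MXI1 went from 109, 119 and 135 CPM to 136, 145 and 147 CPM (0.22, SE 0.08, adjusted p = 0.0311), and its highest vehicle library lay just under its lowest R1881 library. MXD3 went from 28.7, 25.5 and 25.3 CPM to 18, 17.5 and 20.4 CPM, a fall of 0.52 (SE 0.14, adjusted p = 0.00587). The R1881 libraries of MXD3 all lay below those with vehicle, as in LNCaP:C42. MAX (−0.01), MLX (0.09), MXD4 (0.21) and MNT (0.22) had adjusted p of 0.111 to 0.954. MYCN, MYCL, MXD1 and MXD3 passed without any 1 of the libraries, and MXI1 lost its pass in 4 of 6 such fits (0.16 to 0.22, adjusted p up to 0.172).

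In 22Rv1 with siMETTL3, 3 of 10 members passed, MYCL, MXD1 and MLX, all higher, against 33.1% of all genes (16.8% higher, 16.3% lower). MYCL went from 4.74, 4.71 and 5.62 CPM to 7.80, 7.73 and 8.04 CPM and was a DEG (0.62, SE 0.15, edgeR adjusted p = 0.00226), against 13.5% of genes. MXD1 went from 22.2, 22.3 and 19.6 CPM to 28.3, 27.4 and 27.1 CPM (0.34, SE 0.09, adjusted p = 0.00482). MLX went from 58.8, 63.8 and 62.7 CPM to 72.3, 73.6 and 72.4 CPM (0.21, SE 0.07, adjusted p = 0.0329). None of these 3 genes had overlapping libraries.

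MYC did not pass here either, with 303, 296 and 306 CPM in vehicle and 325, 302 and 304 CPM with R1881 (0.02, 95% interval −0.11 to 0.15, adjusted p = 0.886). MYCN stood at 1.65, 2.10 and 1.89 CPM and at 1.52, 0.865 and 1.05 CPM (−0.75, SE 0.30, adjusted p = 0.0635), and passed without R1881 1 (−1.0, adjusted p = 0.0387). MYCL fell under 1.5-fold without vehicle 1 or 2 (0.58 each), and MLX lost its pass in 5 of 6 fits that left out 1 library (0.17 to 0.23, adjusted p up to 0.101). MXD1 thus passed in all 4 comparisons with R1881, by 0.34 to 0.69, and so did MYCL, by 0.50 to 0.62.

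**Figure D3:**
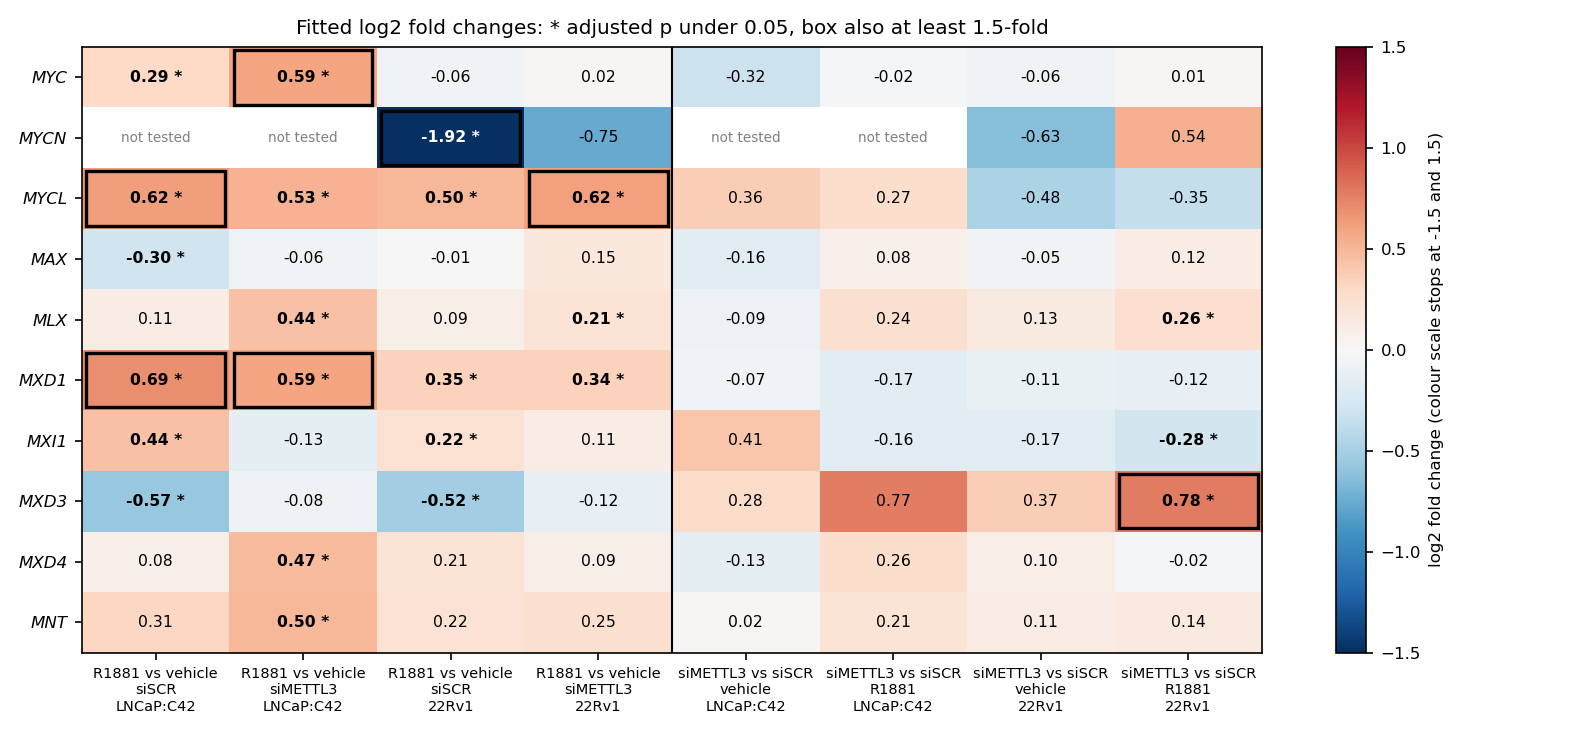
Heat map of the fitted log2 fold change of each member (vertical axis) in the 4 comparisons of R1881 with vehicle (left of the line) and the 4 of siMETTL3 with siSCR (right of it). Red is higher and blue lower, an asterisk marks an adjusted p under 0.05 and a box also at least 1.5-fold. MXD1 and MYCL carry an asterisk in all 4 R1881 comparisons, MYC in those of LNCaP:C42 at 0.29 and 0.59.

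The response of MYC to R1881 differed between the lines. With siSCR it was lower in 22Rv1 than in LNCaP:C42 by 0.35 on the log2 scale (−0.35, SE 0.11, edgeR adjusted p = 0.0251), in a fit of all 24 libraries, and MYC was the only one of 9 comparable members whose response differed, against 16.8% of 19437 genes (7.78% higher, 9.02% lower). The share of members is thus not above that of all genes. MAX (0.29, adjusted p = 0.154) and MXD1 (−0.35, adjusted p = 0.144) reached an unadjusted p under 0.05 alone. The difference of MYC was lost without 22Rv1 siSCR vehicle 1 (−0.32, adjusted p = 0.0678) or R1881 2 (−0.34, adjusted p = 0.0572), with library size alone (−0.29, adjusted p = 0.0637) and with no filter on low counts (−0.35, adjusted p = 0.0981). Without both libraries that stand apart it was −0.38 (adjusted p = 0.00754), and MXD1 passed as well (−0.45, adjusted p = 0.0267), against 18.8% of genes. The response of MYCN, at 0 counts in LNCaP:C42, could not be compared.

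Few members passed in the comparisons of siMETTL3 with siSCR, and MXD3 was the one DEG. In LNCaP:C42 with vehicle 0 of 9 members passed in edgeR, against 1.56% of genes, with 3 members at an unadjusted p under 0.05 and 1, MYC, that passed in DESeq2. MYC was lower with siMETTL3 in all 3 libraries (146 to 168 CPM against 186 to 205 CPM), with a log2 fold change of −0.32 (SE 0.09, edgeR adjusted p = 0.097). MYCL was higher in all 3 (0.36, adjusted p = 0.286), and MXI1 as well (0.41, adjusted p = 0.132). Without both libraries that stand apart MYC (−0.26, adjusted p = 0.0271) and MXD3 (0.51, adjusted p = 0.00509) passed, against 15.7% of genes.

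In LNCaP:C42 with R1881 0 of 9 members passed in edgeR, against 0.937% of genes, with 2 at an unadjusted p under 0.05 and 1, MXD3, that passed in DESeq2. MXD3 stood at 17.9, 15.7 and 16.2 CPM with siSCR and at 30.1, 28.1 and 26.5 CPM with siMETTL3. The groups were far apart relative to their spread, yet the adjusted p was 0.059 (log2 fold change 0.77, SE 0.19); it was 0.0214 without siSCR R1881 1. MLX was at 97.1 to 116 CPM with siSCR and at 118 to 138 CPM with siMETTL3 (0.24, adjusted p = 0.112), and MYC at −0.02 (adjusted p = 0.877). Leaving out both libraries that stand apart, 5 members passed, all higher with siMETTL3 (MXD3 0.80, MYCL 0.44, MXD4 0.41, MNT 0.33, MLX 0.28), but so did 38.7% of all genes, and the count of members was 0 with them.

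In 22Rv1 with vehicle 0 of 10 members passed in edgeR, against 0.56% of genes, with 4 at an unadjusted p under 0.05 and 0 that passed in DESeq2. These were MYCN (−0.63, adjusted p = 0.275), MYCL (−0.48, adjusted p = 0.147), MXI1 (−0.17, adjusted p = 0.333) and MXD3 (0.37, adjusted p = 0.209). MYCL was at 7.47, 7.91 and 5.55 CPM with siSCR and at 4.74, 4.71 and 5.62 CPM with siMETTL3, and it passed without siSCR vehicle 3 (−0.63, adjusted p = 0.046).

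In 22Rv1 with R1881, where the knockdown was deepest, 3 of 10 members passed, against 16.2% of genes (8.93% higher, 7.28% lower). MXD3 was the DEG, against 3.29% of genes: it stood at 18, 17.5 and 20.4 CPM with siSCR and at 31.2, 35.3 and 30.3 CPM with siMETTL3, a rise of 0.78 (SE 0.14, edgeR adjusted p = 0.0019). The lowest siMETTL3 library was well above the highest siSCR library, and the call held without any 1 library. MLX was higher, from 56.6, 61.0 and 63.1 CPM to 72.3, 73.6 and 72.4 CPM (0.26, SE 0.07, adjusted p = 0.0236), and MXI1 lower, from 136, 145 and 147 CPM to 122, 120.5 and 115 CPM (−0.28, SE 0.08, adjusted p = 0.0215). Each of the latter lost its pass in 5 of 6 fits that left out 1 library (0.21 to 0.26, adjusted p up to 0.106, for MLX and −0.25 to −0.30, up to 0.0946, for MXI1). MYC stood at 294 to 319 CPM and 302 to 325 CPM (0.01, adjusted p = 0.909) and did not pass.

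Fragments on the 40.4% of MXD3 exonic bases shared with RAB24 and PRELID1 were left out, so MXD3 was counted mainly over its other bases. Any effect of these neighbours on the MXD3 counts was not tested. The interaction of R1881 and siMETTL3, which tests whether the androgen response differed between the siRNA pools, passed for 0 members in either line in edgeR, against 0% of genes in LNCaP:C42 and 0.0168% in 22Rv1. At an unadjusted p under 0.05 it counted 3 members in LNCaP:C42 (MYC 0.29, MLX 0.33 and MXI1 −0.57, adjusted p 0.321 to 0.388) and 2 in 22Rv1 (MYCN 1.17 and MXD3 0.41, adjusted p 0.802 and 0.81), and DESeq2 passed 0 in both. With both libraries that stand apart left out it again passed for 0 members in LNCaP:C42 (4 at an unadjusted p under 0.05), against 1.31% of genes. The passes of MLX with siMETTL3 and of MXI1 with siSCR in LNCaP:C42 are therefore not shown to differ between the siRNA pools, although the interaction of MXI1 passed with no filter on low counts (−0.59, adjusted p = 0.0367).

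The effect of the knockdown was also compared between the lines. For 0 of the 9 members that could be compared did it differ in vehicle (edgeR, 0.458% of genes) or in R1881 (0.0926% of genes). In vehicle 3 members were at an unadjusted p under 0.05, and DESeq2 passed MYCL and MXI1; in R1881 it was 1 member, and DESeq2 passed 0. MYCL, higher with siMETTL3 in LNCaP:C42 and lower in 22Rv1, had a difference of −0.86 in vehicle (SE 0.22, edgeR adjusted p = 0.0844), and MXI1 one of −0.60 (SE 0.16, adjusted p = 0.101). Leaving out both libraries that stand apart, MYCL passed in vehicle (−0.89, adjusted p = 0.0275), against 0.934% of genes, and 0 members in R1881 (2 at an unadjusted p under 0.05), against 0.608%.

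Between the lines themselves, with siSCR and vehicle, 8 of 10 members were DEGs (3 higher and 5 lower in 22Rv1), against 59.2% of genes (31.2% higher, 27.9% lower), and 8 passed, against 73.9%, so the members differed about as often as any gene. MYC was 1.61-fold higher in 22Rv1 (0.69, SE 0.08, edgeR adjusted p = 8.05e-09) and MXD1 1.86-fold higher (0.90, SE 0.12, adjusted p = 1.05e-07). MYCN, with 36 to 74 counts against 0, was at least 16.8-fold higher when set against the floor of 3 counts per library on the same CPM scale. With R1881 the bound was 4.02-fold.

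Both partners, MYCL and 2 of 5 antagonists (MXD4 and MNT) were lower in 22Rv1. MAX was lower by 0.66 (37.0, 41.6 and 33.2 CPM against 57.8, 60.3 and 59.2 CPM), MLX by 0.81, MXD4 by 1.45, MNT by 0.68 and MYCL by 0.84, with adjusted p from 2.71e-10 to 8.05e-05. The libraries of the lines did not overlap for any of these 5 genes. MXI1 (0.05, adjusted p = 0.715) and MXD3 (0.12, adjusted p = 0.535) overlapped. MAX fell under 1.5-fold without 22Rv1 vehicle 3 (−0.53), and MNT without LNCaP:C42 vehicle 1 or 2 (−0.55 and −0.56) or 22Rv1 vehicle 3 (−0.54).

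With R1881 the same 8 members passed, against 75% of genes, and 5 were DEGs, against 60.1%. MYC was 1.27-fold higher in 22Rv1 (0.34, SE 0.08, adjusted p = 0.000264), a smaller gap than in vehicle. MXD1 was 1.47-fold higher (0.55, adjusted p = 8.15e-05), and MAX lower by 0.37 (adjusted p = 0.000978). MXD4 (−1.32), MYCL (−0.97), MLX (−0.83) and MNT (−0.77) kept their direction. The same 8 members passed in both treatments, as did 76.4% and 73.3% of genes, when both libraries that stand apart were left out.

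The balance of the network was described by ratios of TPM within each library, with no test since the ratios share their genes with the tests above. The antagonist sums include MXD3 and MNT, whose TPM may be too low because of shared exons. TPM divides counts by the full length of each gene, so the ratios are not counts of transcripts. In LNCaP:C42 with siSCR the ratio of MYC to MAX was 4.85 ± 0.23 (SD, n = 3) in vehicle. It was 7.29 ± 0.19 with R1881, and the libraries did not overlap. With siMETTL3 the ratio was 4.37 ± 0.24 and 6.82 ± 0.49. In 22Rv1 it was 11.2 to 12.5 in all 4 groups. The summed TPM of the 3 activators was 1.24 ± 0.14 times that of the 5 antagonists in LNCaP:C42 with siSCR and vehicle, 1.27 ± 0.10 with R1881, 0.884 ± 0.083 with siMETTL3 and vehicle and 1.21 ± 0.16 with siMETTL3 and R1881. In 22Rv1 the activators were 2.05 to 2.39 times the antagonists.

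**Figure D4:**
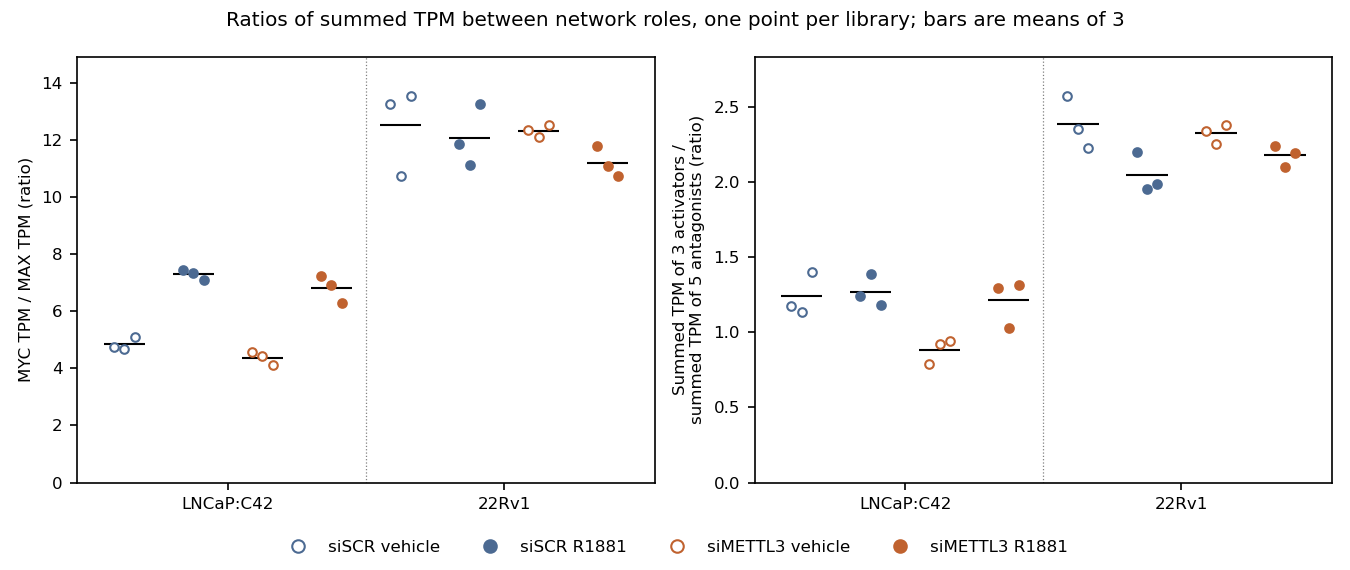
Ratio of MYC to MAX and of summed activators to summed antagonists (TPM) in each library, by group (linear axes from 0). Points are single libraries, open for vehicle and filled for R1881, and bars are means of 3. MYC per MAX has a mean of 4.85 in vehicle and 7.29 with R1881 in LNCaP:C42 siSCR, and all 22Rv1 groups have means of 11.2 or more.

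Genes on which the network acts were followed in lists of MYC targets drawn from general knowledge. Of 30 targets for ribosome biogenesis, such as nucleolin (NCL) and fibrillarin (FBL), 5 fell and 0 rose with R1881 in LNCaP:C42 siSCR (median −0.23, all genes −0.03), against 12.1% of genes that fell. UBTF, which loads RNA polymerase I on ribosomal DNA, fell by 0.62 (edgeR adjusted p = 0.00287). With siMETTL3 2 rose and 0 fell (median 0.08, or −0.01 with scaling by library size alone). In 22Rv1 12 rose and 1 fell with siSCR (median 0.14) and 22 rose and 1 fell with siMETTL3 (median 0.28), against 16.6% and 16.8% of genes that rose. The response of 15 of the 30 was higher in 22Rv1 than in LNCaP:C42 with siSCR and that of 0 was lower (median 0.39, all genes 0.03), against 7.78% of genes higher. Without both libraries that stand apart it was 13, beside 18.8% of all genes that passed in either direction. In LNCaP:C42 siSCR 15 of the 30 then fell and 2 rose, beside 37.8% of all genes that passed in either direction.

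The shares of all genes that rose and fell with R1881 were 12.7% and 12.1% in LNCaP:C42 siSCR, 8.51% and 8.09% with siMETTL3, 16.6% and 16.5% in 22Rv1 siSCR and 16.8% and 16.3% with siMETTL3, and the counts of the further lists stand beside these. Of 29 targets in metabolism and transport, 5 rose and 7 fell in LNCaP:C42 siSCR (median −0.08), 3 rose with siMETTL3 (0.09), and 14 and 16 rose in 22Rv1 (3 and 2 fell; medians 0.15 and 0.25). FASN, the fatty acid synthase, rose by 1.82 in both LNCaP:C42 comparisons and by 0.75 and 0.61 in 22Rv1. ODC1, the first enzyme of polyamine synthesis and a classical MYC target, rose by 1.38 and 1.18 in LNCaP:C42. CAD, which starts pyrimidine synthesis, fell by 0.76 and TYMS, the thymidylate synthase, by 0.72 in LNCaP:C42 siSCR. FASN and ODC1 were the called genes of this list that rose most there. Both are also known to respond to androgen, and the part of MYC in their rises was not tested.

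Of 16 tested targets in the cell cycle and translation, 1 rose and 8 fell in LNCaP:C42 siSCR (median −0.39), 0 rose and 1 fell with siMETTL3 (−0.07), 7 rose and 3 fell in 22Rv1 siSCR (0.16), and 6 rose and 2 fell in 22Rv1 siMETTL3 (0.12). ID2, an inhibitor of differentiation factors, fell in all 4 comparisons (−1.80 and −1.19 in LNCaP:C42, −1.14 and −0.98 in 22Rv1). MCM5, a subunit of the replicative helicase, fell by 0.83 in LNCaP:C42 siSCR. The 14 proliferation genes moved beside these lists: 11 fell and 0 rose in LNCaP:C42 siSCR (median −0.57), 3 fell with siMETTL3 (−0.37), and 3 rose and 2 fell, then 4 rose and 1 fell, in 22Rv1 (0.08 and 0.03, the latter −0.03 with scaling by library size alone). With both libraries that stand apart left out 10 fell in LNCaP:C42 siSCR and 12 with siMETTL3. In these fits 37.8% and 24.3% of all genes passed in either direction. The summed level of the proliferation genes went from 2243 to 2619 CPM in the vehicle libraries to 1383 to 1829 CPM with R1881 in LNCaP:C42 siSCR. The part of cell number or cycling in the target lists was not tested.

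Of 11 tested genes that MYC is known to repress, 4 rose and 1 fell in LNCaP:C42 siSCR, 2 rose and 1 fell with siMETTL3, and in 22Rv1 3 rose and 3 fell with siSCR and 4 rose and 3 fell with siMETTL3. The 22Rv1 counts are of 3 or 4 genes in a direction, beside 16.3% to 16.8% of all genes. NDRG1, also a known androgen target, rose by 1.88 and 0.83 in LNCaP:C42, and the part of MYC in this rise was not tested. CDKN1C, an inhibitor of cyclin-dependent kinases, rose by 1.67 and 0.89. In 22Rv1 KLF6 (1.25 and 1.18) and FTH1 (0.91 and 1.43) rose, and CDKN2B fell (−1.30 and −1.19).

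**Figure D5:**
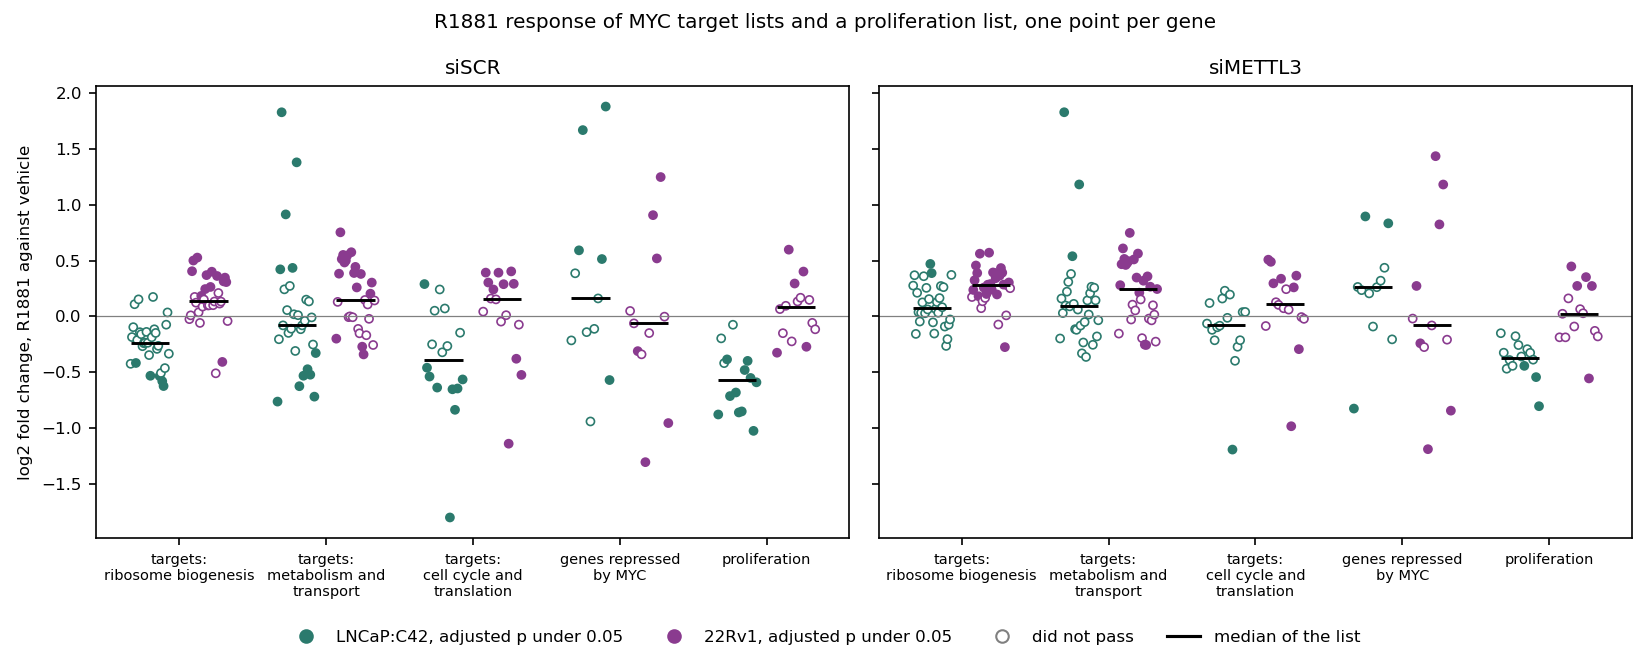
Log2 fold change with R1881 (vertical axis) of each gene in 4 lists of MYC target or repressed genes and a proliferation list, with siSCR (left) and siMETTL3 (right). Points are single genes, green for LNCaP:C42 and purple for 22Rv1, filled where the adjusted p was under 0.05, and black bars are medians. Filled ribosome biogenesis genes above 0 number 12 and 22 in 22Rv1 and 0 and 2 in LNCaP:C42, where 11 and 3 filled proliferation genes lie below 0.

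The cofactors of the network were followed in the same way. Of 14 coactivators and partners of MYC, such as TRRAP and the TIP60 complex, 0 passed in LNCaP:C42 with either siRNA pool in edgeR or DESeq2, with 4 (siSCR) and 0 (siMETTL3) at an unadjusted p under 0.05. With siSCR 4 fell without both libraries that stand apart, beside 37.8% of all genes that passed in either direction. With scaling by library size alone 5 fell. Of the same genes 2 rose and 2 fell with siSCR, then 2 rose and 5 fell with siMETTL3, in 22Rv1, where 16.6% and 16.8% of all genes rose and 16.5% and 16.3% fell. Of 10 subunits of the SIN3 and NCOR corepressors, 3 rose and 1 fell in LNCaP:C42 siSCR, among them SAP30 (0.81, adjusted p = 0.00376) and NCOR1 (0.69, adjusted p = 0.000101), and 2 rose and 0 fell with siMETTL3, against 12.7% and 8.51% of all genes that rose. The response of SAP30 was lower in 22Rv1 by 1.09 (−1.09, adjusted p = 0.000363). Of 13 tested genes that set the stability of MYC protein or mRNA, PIM1, a kinase, rose by 2.18 and 1.70 in LNCaP:C42 and USP28, a deubiquitinase that opposes FBXW7, by 0.62 with siSCR, and in 22Rv1 2 of 15 rose with siSCR, against 16.6% of all genes.

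On the MLX side, MLXIPL fell by 0.71 and 0.80 with R1881 in 22Rv1 (adjusted p = 0.00086 and 0.000256) and was higher by 0.63 with siMETTL3 in LNCaP:C42 with R1881 (adjusted p = 0.0228). ARRDC4, an arrestin-domain gene that MondoA and MLX activate, rose by 0.72 and 0.59 in 22Rv1, where 2 of 3 such targets rose with either siRNA pool, against 16.6% and 16.8% of all genes. In LNCaP:C42 0 of 3 passed with siSCR in edgeR or DESeq2, with 0 at an unadjusted p under 0.05, and 3 of 3 fell with siMETTL3, against 8.09% of all genes.

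The same lists were read in the knockdown comparisons. In LNCaP:C42 with vehicle 0 of 30 ribosome biogenesis genes passed in edgeR, with 16 at an unadjusted p under 0.05 and 7 that fell in DESeq2. Of the 30, 29 were lower with siMETTL3 (median −0.29, all genes 0.00). Without both libraries that stand apart 11 fell, beside 15.7% of all genes that passed in either direction. In 22Rv1 with R1881 6 of the 30 rose and 2 fell (median 0.09), against 8.93% of all genes that rose and 7.28% that fell. Of the genes listed as repressed by MYC, the highest called with siMETTL3 in LNCaP:C42 with vehicle were NDRG1 and CDKN1C. They rose by 1.18 (edgeR adjusted p = 0.00977) and 1.24 (adjusted p = 0.0321), where 1.56% of all genes passed in either direction. They were picked for the size of their rise and do not describe the list as a whole. MYC was lower there but did not pass, and its part in these rises was not tested.

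The genes most like MYC, by Pearson correlation of log2 CPM over the 24 libraries after the mean of each line was subtracted, were SMPD2 (r = 0.91), AKAP1 (0.91) and SRSF8 (0.89), among 12964 genes. For MYCL they were JUNB (0.90), ARF1 (0.89) and SIAH2 (0.89), and for MXD1 AMD1, MCCC2 and XPNPEP1 (0.95 each). Among the members themselves the closest pair was MNT and MXD4 (r = 0.79), and the most opposed were MXD1 and MXD3 (−0.60) and MAX and MXI1 (−0.58). These correlations describe libraries that share treatments and depth and carry no test.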

How the data were processed

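RNA-seq libraries of LNCaP:C42 and 22Rv1 cells were used, 24 in 8 groups of 3. Per the labels and the methods of the study, the authors trimmed reads with Trim Galore and cutadapt, aligned them to GRCh38 with STAR and deposited raw counts of fragments per gene, made with featureCounts 1.5.0 and Ensembl release 83, without strand. Libraries held 15716224 to 21306019 counts (median 17671721). The floor of 3 counts covers counting error only, whereas the intervals rest on the SE of the fit, which includes the spread between libraries. The lowest chi-square per degree of freedom between replicates was 2.21, so no library appeared to be deposited more than once.

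Groups were taken from the sample labels. Counts were fitted with the quasi-likelihood test of edgeR 4.0.16 in R 4.3.3 (limma 3.58.1), with TMM scaling and filterByExpr (minimum count 10, minimum total 15), over the 12 libraries of a line or all 24 for comparisons between lines. The fits were tested before use on simulated counts with known changes of 1 on the log2 scale. For R1881 with siSCR edgeR recovered 86% of them in LNCaP:C42 and 90% in 22Rv1. It recovered 58% and 80% for the interaction in these lines and 73.5% for the response between lines. Of the calls for the LNCaP:C42 interaction 7.94% were false in edgeR and 11.4% in DESeq2. Smaller changes were not simulated. P-values were adjusted by Benjamini-Hochberg over all genes tested. A gene passed at an adjusted p under 0.05 and was a DEG when it also changed by at least 1.5-fold; interactions and differences between responses carry no fold threshold. CPM and TPM were computed from the counts, and a 95% interval is the estimate with its normal quantile times the SE. Tables and plots used Python 3.11.15, numpy 2.4.6, pandas 2.3.3 and matplotlib 3.10.9.

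The members and the gene lists were chosen with earlier results of these data known, so list counts are descriptions. Named genes are the 10 members in every comparison, at most the 2 highest and 2 lowest genes called per list and comparison, METTL3 and androgen targets as checks, and the 3 most correlated genes; COL1A1 was singled out after its values were seen. Alternatives were DESeq2 1.42.0, RLE scaling, library size alone, no filter, at least 10 counts in every library, a replicate block, leaving out each library, no fold threshold, and only the 6 libraries compared; leaving out both libraries that stand apart was added after the data were seen. Same-numbered libraries did not deviate together (mean r = −0.02 in LNCaP:C42 and −0.01 in 22Rv1 over 18 pairs each), so the numbers were not used as pairs. Other data of the study were not analysed here.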

Additional observations from a re-analysis of the deposited data

Results flagged for a closer look

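MYC, the member with the highest TPM, responded differently to R1881 in the lines, as tested by the difference between the responses. The same test passed for 16.8% of all genes. With siSCR its response was lower in 22Rv1 than in LNCaP:C42 by 0.35 on the log2 scale (−0.35, SE 0.11, edgeR adjusted p = 0.0251). The adjusted p ranged from 0.00136 to 0.0981 over the alternatives, and the call ended with library size alone (−0.29, adjusted p = 0.0637) and with no filter on low counts (−0.35, adjusted p = 0.0981). It also ended without 22Rv1 siSCR vehicle 1 (−0.32, edgeR adjusted p = 0.0678) or R1881 2 (−0.34, adjusted p = 0.0572).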

How the results depend on the processing

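The counts of members that were DEGs kept within 1.5 times their value in 91 of 118 fits other than those that left out 1 library. The exceptions were these. In LNCaP:C42 with siSCR, R1881 gave 2 DEGs, 1 with library size alone and 6 with no fold threshold. With siMETTL3 it gave 2, and 0 with library size alone, no filter, at least 10 counts in every library or only the 6 libraries compared, 1 without both libraries that stand apart and 6 with no fold threshold. The knockdown with R1881 gave 0 there, and 1 with DESeq2, no filter, only 6 libraries or both libraries that stand apart left out. The interaction in LNCaP:C42 gave 0, and 1, MXI1, with no filter. In 22Rv1 with siSCR R1881 gave 1, 2 with library size alone and 5 with no fold threshold. With siMETTL3 it gave 1, 0 with library size alone, 2 with only 6 libraries and 3 with no fold threshold. The knockdown with R1881 gave 1 there, and 3 with no fold threshold. Between the lines 8 members were DEGs in vehicle, 5 with at least 10 counts in every library, and 5 in R1881, 8 with no fold threshold. The R1881 response differed between lines for 1 member, for 0 with library size alone or no filter and for 2 without both libraries that stand apart. The knockdown effect in vehicle differed for 0, for 2 with DESeq2 or no filter and for 1 without both. The cause of these changes was not tested.

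Without 1 library the counts ran from 1 to 3 for R1881 in LNCaP:C42 with siMETTL3, 0 to 1 for the knockdown there with R1881, 1 to 2 and 0 to 2 for R1881 in 22Rv1 with siSCR and siMETTL3, 0 to 1 for the knockdown in 22Rv1 vehicle, 6 to 8 for the lines in vehicle, and 0 to 1 for the R1881 response and the vehicle knockdown effect between lines; the other comparisons kept their count.

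Library size alone turned the sign of MLX (−0.012) and MXD4 (−0.044) with R1881 in LNCaP:C42 siSCR, of MYC with R1881 in 22Rv1 siMETTL3 (−0.045) and of MXI1 between the lines in R1881 (0.034). Leaving out both libraries that stand apart turned that of MXD4 in LNCaP:C42 siSCR (−0.081), MXI1 in LNCaP:C42 siMETTL3 (0.030) and MYC in the LNCaP:C42 knockdown with R1881 (0.0082). Leaving out 1 library moved MXD4 in LNCaP:C42 siSCR from −0.080 to 0.16. With R1881 in LNCaP:C42 siMETTL3 it moved MXI1 from −0.26 to 0.031 and MXD3 from −0.32 to 0.062. With R1881 in 22Rv1 it moved MAX from −0.091 to 0.078 with siSCR, and with siMETTL3 MYC from −0.017 to 0.038, MXD3 from −0.30 to 0.055 and MXD4 from −0.0031 to 0.14. In the knockdown it moved MYC from −0.088 to 0.015 in LNCaP:C42 with R1881, from −0.083 to 0.0019 in 22Rv1 with vehicle and from −0.020 to 0.050 with R1881. None of these values passed in the reported fits.

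With the replicate block, the counts of DEGs among members for R1881 were 2 and 2 in LNCaP:C42 (siSCR, siMETTL3) and 1 and 1 in 22Rv1, and those for the knockdown were 0, 0, 0 and 1. Passes went from 6 to 3 (MYCL, MXD1 and MXI1) in LNCaP:C42 siSCR and from 6 to 5 with siMETTL3, and from 3 to 4 in 22Rv1 siMETTL3. The numbers did not pair the libraries.

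Library size alone moved the median of all genes from −0.03 to −0.15 for R1881 in LNCaP:C42 siSCR, and from 0.03 to 0.18 and 0.09 to 0.29 for the lines in vehicle and R1881. With 3 libraries a group and 10 to 74 counts of MYCN per 22Rv1 library, small differences were not detectable at this depth.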
